A study of Rattus norvegicus with 6 samples.

Results

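The genes described here are 10 transcription factors and cofactors that govern the maturation of Schwann cells, the glia of peripheral nerve: Egr2 (also called Krox20), Pou3f1 (Oct6), Pou3f2 (Brn2), Nfatc4, Yy1, Zeb2, Nab1, Nab2, Sox2 and Id2. They were chosen by name, for their known roles, from the 29468 gene symbols of the tables, 20494 of them with a value above 0 somewhere. All 10 were above the filter on low values, a mean of at least 1 FPKM (mapped fragments relative to transcript length and to the total of the library) over the 6 samples. RNA sequencing compared 3 preparations of Schwann cell precursors (SCPs 1 to 3) with 3 preparations of repair Schwann cells (RSCs 1 to 3), all from LEWIS rats. The paper names wild type LEWIS rats for all experiments, but its grafted cells came from transgenic LEWIS rats that express a red fluorescent protein. It does not say plainly which of these rats gave the cells for RNA. SCPs were dissociated from the sciatic nerves and brachial plexus of embryos at embryonic day 14, with no injury. RSCs were dissociated from the distal part of sciatic nerves of adult rats aged 10 weeks, 1 week after transection, in a longer digestion with more collagenase. Age, injury and digestion therefore differ together between the groups and cannot be told apart. Neither preparation was sorted: cells were plated briefly on uncoated flasks to remove fibroblasts and macrophages. The number of animals pooled in a preparation is not given in the sources used here, and p-values measure only the spread between these preparations.

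Schwann cell precursors arise from the neural crest, become immature Schwann cells and, where they contact a large axon, myelinate. Pou3f1 and Pou3f2, POU domain factors, and Sox10 are known to turn on Egr2, the zinc finger factor that myelin genes depend on. Egr2 acts with the cofactors Nab1 and Nab2, which recruit the NuRD corepressor. Yy1 and Nfatc4 are known as activators of Egr2, and Zeb2 as a repressor of genes that inhibit myelination. Sox2 and Id2 mark the immature state and oppose myelination. After a nerve is cut, Schwann cells of the distal stump leave the myelinating state, and a well known part of that change is the loss of Egr2 and the return of Sox2. The 6 samples hold no cells of intact adult nerve, so that change was not measured here. A gene higher in RSCs is higher than in embryonic precursors only.

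Promoters are shown for 4 of the genes whose transcripts are described below, Egr2, Sox2, Id2 and Nab1, since they hold the known motifs that were searched for and carry the differences described, with Nab1 as a cofactor of Egr2 that itself holds EGR sites. Each sequence is the 250 bases before the transcription start of the RefSeq record on the GRCr8 assembly, on the strand of the gene, and 8 of the 10 genes had a record in the table used. Capitals mark the motifs found. In Egr2 (chr20:21054442-21054691, minus strand) they are a CArG box, the site of serum response factor, and an octamer, the site of POU factors. In Sox2 (chr2:119464881-119465130, plus strand) and Id2 (chr6:47470996-47471245, minus strand) they are CCAAT boxes on either strand, and in Nab1 (chr9:56545392-56545641, plus strand) they are sites of EGR factors.
Egr2: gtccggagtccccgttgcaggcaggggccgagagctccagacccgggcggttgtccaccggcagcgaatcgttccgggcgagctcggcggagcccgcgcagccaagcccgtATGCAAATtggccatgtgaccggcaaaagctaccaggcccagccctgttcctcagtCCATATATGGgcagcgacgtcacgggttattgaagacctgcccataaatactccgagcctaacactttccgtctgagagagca
Sox2: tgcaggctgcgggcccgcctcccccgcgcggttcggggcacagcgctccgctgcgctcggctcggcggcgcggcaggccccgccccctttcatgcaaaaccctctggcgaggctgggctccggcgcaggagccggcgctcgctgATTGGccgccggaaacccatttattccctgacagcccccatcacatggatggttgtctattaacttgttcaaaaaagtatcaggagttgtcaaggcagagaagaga
Id2: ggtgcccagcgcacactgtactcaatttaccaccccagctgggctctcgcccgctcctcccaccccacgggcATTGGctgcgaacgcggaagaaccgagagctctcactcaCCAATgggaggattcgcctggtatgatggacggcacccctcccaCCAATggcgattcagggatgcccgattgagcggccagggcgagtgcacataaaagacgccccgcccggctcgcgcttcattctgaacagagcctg
Nab1: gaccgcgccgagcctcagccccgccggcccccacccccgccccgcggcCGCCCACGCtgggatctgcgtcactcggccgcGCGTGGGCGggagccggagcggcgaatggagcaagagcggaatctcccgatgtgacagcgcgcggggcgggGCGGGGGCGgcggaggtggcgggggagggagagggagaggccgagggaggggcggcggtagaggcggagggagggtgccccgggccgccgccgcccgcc

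The Egr2 promoter held the CArG box CCATATATGG at 83 to 74 bases before the start and the octamer ATGCAAAT at 139 to 132 bases before it. A CCAAT box in reverse overlaps that octamer. Of all 33469 promoters of this length, 1.5% held a CArG box and 1.56% the octamer on either strand, and among the 8 genes with a record Egr2 was the one that held each. Nab1 held 3 EGR sites, 1 of the form GCGGGGGCG, found in 2.45% of all promoters, and 2 of the form GCGTGGGCG or its complement, found in 0.478%. No other of the 8 held either form. The CCAAT box was common, in 34% of all promoters, and was in those of Egr2, Yy1, Sox2 and Id2. The cyclic AMP response element TGACGTCA was in the Yy1 promoter and in 1.59% of all, and ACAAAG, a core bound by SOX factors, was in that of Zeb2 and in 16.3% of all. TGACTCA, a site of the AP-1 family, and CACCTG, the E-box that ZEB factors bind, were in 4.05% and 15.9% of all promoters and in none of the 8. A match is a stretch of letters, and no binding was measured.

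The depth of the libraries is known only in relative terms, since the tables hold no counts: relative to SCP 2, the deepest, the coverage behind each unit of FPKM was 0.878 to 1 for SCPs and 0.789 to 0.841 for RSCs. Each table also lists transcripts without a gene name, which Cufflinks assembled from that sample alone and which held 26.1% to 31.9% of all FPKM in SCPs and 18.6% to 23.4% in RSCs. Values below are sums over named transcripts. For the 10 factors the sum with unnamed transcripts of the same locus follows where it differs, while for other genes and lists it is given only where stated. The Schwann lineage label was borne out by Sox10, the factor that defines the lineage, at 179, 175 and 181 FPKM in SCPs and 149, 143 and 143 FPKM in RSCs. The 9 Schwann lineage markers summed to 458 to 519 FPKM in SCPs and 1887 to 2409 FPKM in RSCs. Transcripts of other cell types were present. The 12 leukocyte markers summed to 15.0 to 42.6 FPKM in SCPs, where 2 of them were listed at 0 in every sample, and to 2787 to 3019 FPKM in RSCs, and the 7 fibroblast markers to 643 to 1022 and 5374 to 8023 FPKM. Red cell precursor markers lay the other way, at 2828 to 6800 FPKM in SCPs and 0.548 to 1.75 FPKM in RSCs, with 2 of the 6 at 0 in all RSCs. Nearly all of the SCP sum was the globin gene Hbz, with a mean of 5289 FPKM. Alas2 went against the others, at 0 in all SCPs and 1.23, 0 and 1.43 FPKM in RSCs. With unnamed transcripts its means were 36.6 FPKM in SCPs and 1.45 FPKM in RSCs. Of the tested markers of other types, 1 of 7 endothelial and 1 of 4 mural genes rose in RSCs, 2 of 5 neuronal genes fell, and of 6 muscle genes 5 fell and 1 rose. Of all genes tested, 18.1% rose in RSCs and 22.4% fell. Among 15 immediate-early genes, which respond to tissue dissociation, the sums were 458 to 528 FPKM in SCPs and 2332 to 2669 FPKM in RSCs. In such bulk samples a change in the number of cells of a type and a change in RNA per cell cannot be told apart, and the part of these differences in the results below was not tested.

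Of the 10 genes, Egr2, Pou3f1, Sox2 and Id2 were higher in RSCs and Yy1 was higher in SCPs, at an unadjusted p under 0.01 by limma on log2(FPKM + 1). Pou3f2, Nfatc4, Nab1, Nab2 and Zeb2 did not pass. On this scale both the myelin regulator Egr2 and the immaturity factor Sox2 rose by over 4-fold, the threshold of the study (a log2 fold change over 2). Over all 13003 genes tested, 40.5% passed in either direction, 18.1% with RSCs higher and 22.4% with SCPs higher, and 11.6% passed with over 4-fold. The 5 of 10 that passed are thus close to the share of all genes, and 2 of 10 were over 4-fold. Pou3f1, at 1.94, lay just under this threshold and passed it with a pseudocount of 0.1 (2.60) and with median-of-ratios scaling (2.08). The median log2 fold change (RSC minus SCP, as throughout) was 0.71 over the 10 genes and -0.17 over all genes tested. Median-of-ratios scaling moved the latter to 0.02 and the share of called genes that were higher in RSCs from 44.6% to 56.1%, and there the same 5 genes passed, with Nab1 as well. In 6 of the 10 genes the 3 values of one group all lay above those of the other, and this was so of 58.6% of all genes tested. With unnamed transcripts added, 6 genes passed as higher in RSCs (Egr2, Pou3f1, Pou3f2, Nab1, Nab2 and Sox2) and 2 as higher in SCPs (Nfatc4 and Yy1), or 8 of 10 in all, against 23.2%, 34.1% and 57.3% of the 14020 genes tested that way. Id2 then missed the threshold, and Nfatc4 joined Egr2 and Sox2 over 4-fold, 3 of 10 against 13.1% of all genes.

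**Figure D1:**
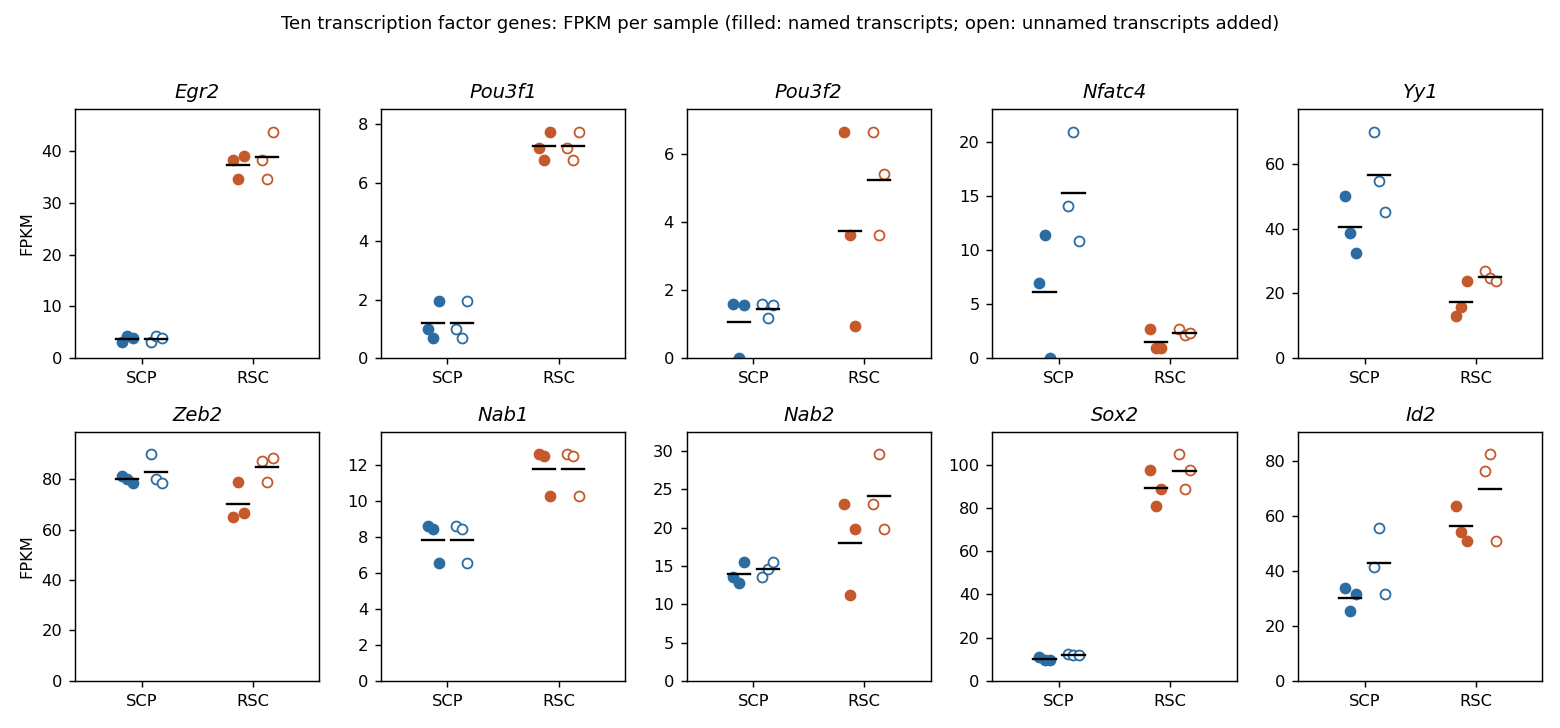
FPKM (vertical axes, linear from 0, with a scale for each gene) of the 10 genes in the 3 SCP and 3 RSC samples. Filled points are sums over named transcripts, open points have unnamed transcripts added, and bars are means of 3 samples. Egr2, Pou3f1 and Sox2 stand apart in both, Zeb2 overlaps in both, and the filled points of Pou3f2, Nfatc4 and Nab2 spread more than the open ones.

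Egr2 was the gene with the largest ratio between the groups. Its FPKM was 3.10, 4.25 and 3.80 in SCPs 1 to 3 and 38.3, 34.7 and 39.2 in RSCs 1 to 3. Every RSC value was far above every SCP value, and the spread within either group was small beside the gap. The mean of RSCs was 10.1 times that of SCPs, and the log2 fold change was 3.03 (SE 0.14, Benjamini-Hochberg adjusted p = 4.7e-05 by limma, as for all adjusted p-values below). It passed without any 1 of the 6 samples. Egr2 spans 20:22454461-22460984 on rn6 with 2 named transcripts. The RefSeq mRNA, of 2963 bases over the shorter span, carried most of the FPKM. A predicted record, of 2641 bases over the longer span, was at 0.960, 0 and 0 in SCPs and at 12.3, 5.29 and 4.92 in RSCs. An unnamed transcript added FPKM in RSC 3 alone, which took its value to 43.9.

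Pou3f1 encodes Oct6, the factor of the promyelinating stage that comes before Egr2. Its FPKM was 0.988, 0.693 and 1.95 in SCPs and 7.21, 6.77 and 7.75 in RSCs. The groups did not overlap, nor did the 95% intervals that Cufflinks gives for single samples, whose highest upper bound in SCPs was 2.61 and whose lowest lower bound in RSCs was 5.29. The RSC mean was 5.98 times the SCP mean, with a log2 fold change of 1.94 (SE 0.26, limma adjusted p = 0.00187). Adding 1 before taking the logarithm brings the fold change of a gene this low closer to 0. The gene lies at 5:142643599-142646580 and has a single named transcript and no unnamed one.

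Pou3f2 encodes Brn2, which overlaps with Oct6 in the myelinating lineage. It read 1.58, 0 and 1.56 FPKM in SCPs and 6.65, 3.62 and 0.952 FPKM in RSCs over its 1 named transcript (5:36681528-36683356). RSC 3 lay below SCPs 1 and 3, so the groups overlapped, and the log2 fold change of 1.13 (SE 0.63, limma adjusted p = 0.195) did not pass. In SCP 2 and RSC 3 Cufflinks had placed fragments of this locus in an unnamed transcript. With these added the values were 1.58, 1.18 and 1.56 in SCPs and 6.65, 3.62 and 5.41 in RSCs. The groups no longer overlapped, and the log2 fold change was 1.33 (limma adjusted p = 0.00186), which passed without any 1 sample as well. Both POU factors were then higher in RSCs, at the lowest levels of the 10 genes in SCPs.

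Nfatc4, a factor that calcineurin brings into the nucleus downstream of neuregulin, was the gene that the unnamed transcripts touched most. Its single named transcript (15:34493163-34502238) was at 6.91, 11.4 and 0 FPKM in SCPs and at 2.67, 0.921 and 0.941 FPKM in RSCs. The 0 in SCP 3 was below all RSC values while SCPs 1 and 2 were above them, and the log2 fold change of -0.95 (SE 0.97, limma adjusted p = 0.463) did not pass. Unnamed transcripts held 45.5% to 100% of the FPKM of the locus in SCPs and 0% to 59.0% in RSCs. With them the values were 14.1, 20.9 and 10.8 in SCPs and 2.67, 2.13 and 2.30 in RSCs, so that every SCP lay above every RSC. Nfatc4 then fell in RSCs by 2.23 on the log2 scale (SE 0.24, limma adjusted p = 0.00025), and passed with any 1 sample left out. It also passed on named transcripts with the 0 of SCP 3 or the whole of SCP 3 left out.

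Yy1, a zinc finger factor present in most cell types, was the gene that was higher in SCPs on named transcripts. Its FPKM was 50.0, 38.7 and 32.6 in SCPs and 12.9, 15.7 and 23.8 in RSCs. The groups did not overlap, and SCP 3 and RSC 3 lay nearest to each other. Yy1 fell in RSCs by 1.19 on the log2 scale (SE 0.26, limma adjusted p = 0.0124). The call was lost without SCP 1, SCP 2, RSC 1 or RSC 2. Unnamed transcripts held 27.9% to 29.3% of the locus (6:132701781-132726848 in the named records) in SCPs and 0% to 51.8% in RSCs. With them the values were 70.0, 54.8 and 45.2 in SCPs and 26.8, 24.7 and 23.8 in RSCs, a fall of 1.12 (limma adjusted p = 0.001) that passed without any 1 sample.

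Zeb2, a zinc finger and homeodomain repressor, had the highest level of the 10 genes in SCPs. It was at 81.3, 80.2 and 78.6 FPKM in SCPs and 64.9, 79.0 and 66.4 FPKM in RSCs. RSC 2 lay among the SCPs and the other RSCs below them. The log2 fold change of -0.19 (SE 0.10, 95% interval -0.43 to 0.04, limma adjusted p = 0.152) did not pass, and the interval lies within 1 log2 unit of 0. The gene (3:29857417-29985930) has 6 named transcripts, 2 of them above 0. The longer of those read 11.7, 21.9 and 20.5 FPKM in SCPs but 0, 22.9 and 0 in RSCs, while unnamed transcripts at the locus appeared in SCP 1, RSC 1 and RSC 3. With unnamed transcripts Zeb2 was at 89.8, 80.2 and 78.6 in SCPs and 87.3, 79.0 and 88.5 in RSCs, with a log2 fold change of 0.036 (limma adjusted p = 0.733). The direction of the small difference thus depends on which transcripts are counted, and median-of-ratios scaling also turned it, to 0.018.

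Nab1 and Nab2, which bind EGR factors and turn their activation down or up by context, had log2 fold changes under 1. Nab1 was at 8.61, 8.43 and 6.53 FPKM in SCPs and 12.6, 12.5 and 10.3 FPKM in RSCs (9:53906073-53945473, no unnamed transcripts). All RSCs lay above all SCPs, by a ratio of means of 1.50, but the log2 fold change of 0.53 (SE 0.17, limma adjusted p = 0.041) did not pass. Median-of-ratios scaling took it past that threshold, and so did the fit with unnamed transcripts, in which the values of Nab1 are the same and its SE is 0.15 (limma adjusted p = 0.0171). That call was lost in 5 of the 6 fits that leave out 1 sample. Nab2 was at 13.5, 12.7 and 15.5 FPKM in SCPs and 23.1, 11.3 and 19.9 FPKM in RSCs, where RSC 2 lay below all SCPs (log2 fold change 0.30, SE 0.27, limma adjusted p = 0.404). At the Nab2 locus (7:70963580-70971480) an unnamed transcript held 62.0% of the FPKM of RSC 2. With it RSC 2 was at 29.6 and SCP 2 at 14.6, the groups did not overlap, and the log2 fold change was 0.68 (limma adjusted p = 0.00781). That call was lost without SCP 1, SCP 2 or RSC 1.

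Sox2, the stem cell and immaturity factor of the SRY family, was the other gene with a log2 fold change over 2 on named transcripts. Its FPKM was 11.2, 9.55 and 9.80 in SCPs and 97.5, 81.2 and 88.9 in RSCs. The groups were far apart, and the log2 fold change was 3.01 (SE 0.11, limma adjusted p = 2.69e-05), with a ratio of means of 8.75. Part of this came from a second transcript under the same symbol. The Sox2 mRNA itself (2:121165137-121167545, rn6) was at 11.2, 9.55 and 9.80 FPKM in SCPs and 55.3, 47.0 and 50.7 FPKM in RSCs. A spliced transcript of 2155 bases that spans 2:121062030-121194165, around the mRNA, was at 0 in all SCPs and at 42.2, 34.1 and 38.2 FPKM in RSCs, 42.0% to 43.3% of the Sox2 sum there. The tables do not say what this transcript is or whether it encodes a protein. For the mRNA alone, a comparison added after seeing the data, the ratio of means was 5.01 and the log2 fold change 2.22 (SE 0.12, limma adjusted p = 6.24e-05), still over 4-fold. Cufflinks gave its estimate of this mRNA the status LOWDATA in all 6 samples, as it did those of the RefSeq mRNAs of Yy1 and Zeb2. The same status was given, among others, to Pou3f2 in SCP 2 and RSC 3. It was also given to the main Nab1 transcript in SCP 2 and RSCs 1 to 3. The ground for this status is not stated in the sources used here. An unnamed transcript at the locus was at 1.16, 2.21 and 2.08 FPKM in SCPs and 7.35, 7.59 and 8.55 FPKM in RSCs.

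**Figure D2:**
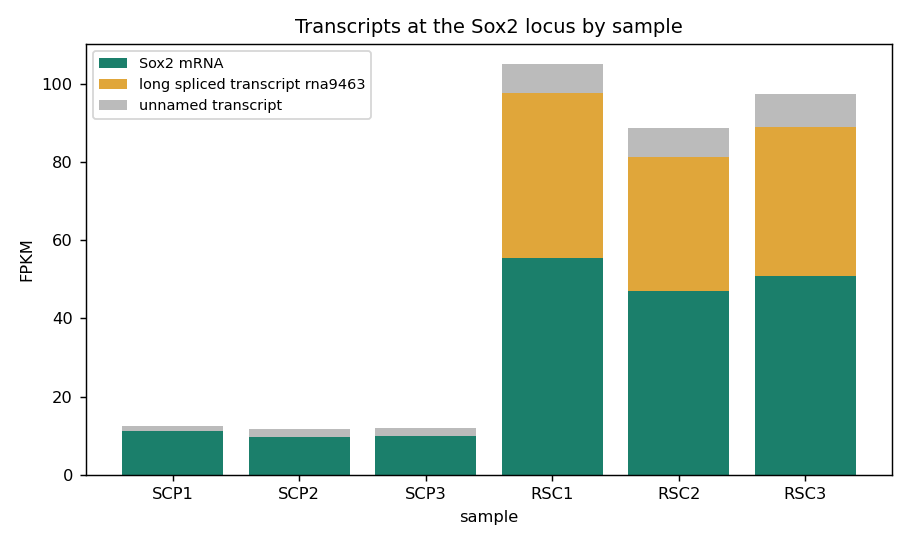
FPKM (vertical axis, linear from 0) of the transcripts at the Sox2 locus in each sample, stacked: the Sox2 mRNA, the long spliced transcript filed under the same symbol, and the unnamed transcript. The long transcript is at 0 in the 3 SCPs and at 34.1 to 42.2 FPKM in the 3 RSCs, and the mRNA alone is at 9.55 to 11.2 in SCPs and 47.0 to 55.3 in RSCs.

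Id2, a helix-loop-helix protein without a DNA binding domain that holds E proteins away from their sites, rose less. Its FPKM was 33.8, 25.3 and 31.7 in SCPs and 63.8, 54.3 and 51.0 in RSCs. The groups did not overlap, the RSC mean was 1.86 times the SCP mean, and the log2 fold change was 0.88 (SE 0.15, limma adjusted p = 0.00427). Short unnamed transcripts at the locus (6:44360077-44361908) held 0% to 54.4% of its FPKM in SCPs and 0% to 34.2% in RSCs. With them Id2 was at 41.5, 55.5 and 31.7 in SCPs and 76.3, 82.5 and 51.0 in RSCs, where SCP 2 lay above RSC 3, and the log2 fold change of 0.70 (limma adjusted p = 0.0462) missed the threshold.

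**Figure D3:**
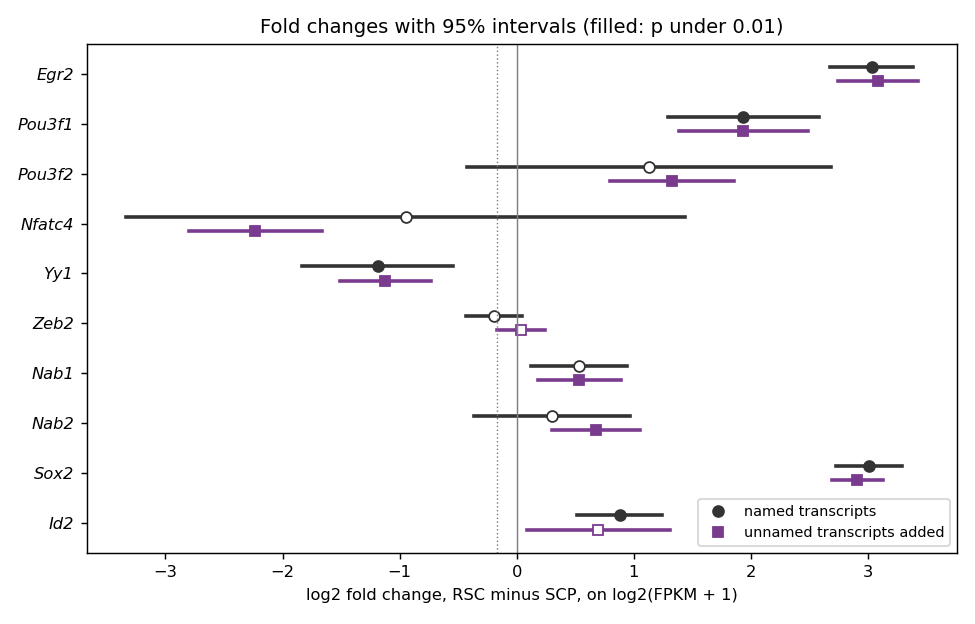
Log2 fold change of each gene, RSC minus SCP on log2(FPKM + 1), with 95% limma intervals. Circles are named transcripts and squares have unnamed ones added, filled at p under 0.01, and the dotted line is the median of all genes tested on named transcripts, -0.17. Egr2 and Sox2 lie near 3 in both, and the intervals of Nfatc4, Pou3f2 and Nab2 narrow with unnamed transcripts added.

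Since FPKM is per length, the levels of different genes can be set side by side. In SCPs the mean FPKM of named transcripts ran from Zeb2 (80.0 ± 1.33, SD, n = 3) through Yy1 (40.4 ± 8.85), Id2 (30.3 ± 4.43), Nab2 (13.9 ± 1.43), Sox2 (10.2 ± 0.914), Nab1 (7.86 ± 1.15), Nfatc4 (6.10 ± 5.74) and Egr2 (3.71 ± 0.580) to Pou3f1 (1.21 ± 0.658) and Pou3f2 (1.05 ± 0.906). Neighbours whose sample values overlapped in this order were Yy1 and Id2, Nab1 and Nfatc4, Nfatc4 and Egr2, and Pou3f1 and Pou3f2. In RSCs the order ran from Sox2 (89.2 ± 8.19) through Zeb2 (70.1 ± 7.78), Id2 (56.4 ± 6.66), Egr2 (37.4 ± 2.39), Nab2 (18.1 ± 6.11), Yy1 (17.5 ± 5.66), Nab1 (11.8 ± 1.32) and Pou3f1 (7.24 ± 0.495) to Pou3f2 (3.74 ± 2.85) and Nfatc4 (1.51 ± 1.01). There Nab2 overlapped with Yy1, and Pou3f2 with Nfatc4. By rank, Sox2 was number 5 of the 10 in SCPs and number 1 in RSCs, and Egr2 number 8 and number 4. The Sox2 mRNA alone, at 51.0 ± 4.13 FPKM in RSCs, lay below Zeb2 and overlapped with Id2, so the first place of Sox2 rests on the long transcript filed under its symbol. With unnamed transcripts Nfatc4 was at 15.3 ± 5.15 FPKM in SCPs, number 4 rather than 7 and overlapping with Nab2, Pou3f2 lay above Pou3f1 in SCPs with overlap, and Zeb2 and Id2 overlapped in RSCs.

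The genes whose log2(FPKM + 1) followed a factor most closely over the 6 samples, among 78 candidates of the lists below and the factors themselves, are given as a description, since with 2 groups of 3 any pair that differs between the groups has a high correlation. For Egr2 they were Ier3 and Btg2 (Pearson r = 0.9991 and 0.9989), both immediate-early genes, and for Pou3f1 Klf4 and Klf6 (0.9904 and 0.9875), from the same list. Sox2 was closest to Gjb1 and Pllp (0.9965 and 0.9943), genes of the myelin sheath. Id2 was closest to Sox4 and Gjb1 (0.9797 and 0.9713), and Nab1 to Runx2 and Socs3 (0.9519 and 0.9354). Among genes higher in SCPs, Yy1 was closest to Mbd3 and Rbbp7 (0.9772 and 0.94), both NuRD subunits. Values were lower for Zeb2 (Mta1 and Tcf4, 0.8864 and 0.8712), Nfatc4 (Id3 and Hey1, 0.89 and 0.8665), Pou3f2 (Ppp3cc and Prx, 0.885 and 0.8381) and Nab2 (Gatad2b and Fosb, 0.8103 and 0.6103). All are on named transcripts, and some may rest on what was left unnamed. In SCP 3, Nfatc4 and Id3 were at 0 and 102 FPKM by name, but at 10.8 and 224 FPKM with unnamed transcripts. Prx was at 0 in all SCPs by name and at 5.47, 5.43 and 5.98 FPKM with them. Correlations with unnamed transcripts were not computed. All 6 libraries are shared by every pair.

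The genes that act with or after these factors are described next, on named transcripts. Over all 13003 genes tested, 18.1% rose in RSCs and 22.4% fell. Of 18 myelin protein and lipid genes, 14 were tested, of which 11 rose in RSCs and 1 fell, with a median log2 fold change of 1.95. Mbp, a major myelin protein, was at 6.18 ± 3.16 FPKM in SCPs and 249 ± 29.3 FPKM in RSCs (SD, n = 3 each, log2 fold change 5.24, limma adjusted p = 0.000196). Pllp, a membrane protein of myelin, was at 0.436 ± 0.276 and 38.0 ± 4.58 FPKM (4.77, limma adjusted p = 3.6e-05).

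In the list of EGR relatives and subunits of the NuRD corepressor, through which the Nab proteins act, most calls were NuRD subunits that were lower in RSCs. Of 16 genes tested, 3 rose in RSCs and 9 fell, with a median of -0.66, and the 9 were Egr3 and 8 NuRD subunits. Of all genes tested, 18.1% rose and 22.4% fell. Mta1 and Chd3, NuRD subunits, fell by 1.99 and 1.92 (limma adjusted p = 0.00242 and 0.000619), from 50.1 ± 10.1 to 12.2 ± 4.77 FPKM and from 124 ± 20.1 to 32.2 ± 7.25 FPKM. The other subunits that were higher in SCPs were Hdac1, Hdac2, Mta2, Rbbp4, Rbbp7 and Mbd3. The subunit Mbd2, which binds methylated DNA, rose by 0.85 (limma adjusted p = 0.0134), from 14.8 ± 2.98 to 27.2 ± 4.01 FPKM. Egr1 and Egr4, relatives of Egr2, rose by 1.40 and 1.15 (limma adjusted p = 0.00617 and 0.0195), Egr1 from 38.6 ± 7.19 to 106 ± 31.9 FPKM and Egr4 from 0.470 ± 0.341 to 2.23 ± 0.587 FPKM. Egr3 was at 1.25, 2.79 and 3.20 FPKM in SCPs and listed at 0 in all RSCs (-1.72, limma adjusted p = 0.00563), but with unnamed transcripts its RSC values were 11.4, 9.51 and 7.46 and the direction reversed (1.65, limma adjusted p = 0.00199), so that all 3 relatives of Egr2 were then higher in RSCs. The count of 9 higher in SCPs held under median-of-ratios scaling.

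The list of brakes held 12 other genes. All but Smad7, an inhibitor of TGF-beta signalling, oppose myelination or mark immature cells. Of the 12, 10 were tested, of which 2 rose in RSCs and 3 fell (median -0.58). These counts are near the shares of all genes tested, 18.1% that rose and 22.4% that fell. Runx2, from 7.16 ± 2.75 to 27.1 ± 7.48 FPKM, and Sox4, from 34.9 ± 3.28 to 57.5 ± 4.51 FPKM, rose by 1.81 and 0.70 (limma adjusted p = 0.00584 and 0.00299), in the direction of Sox2 and Id2. The Notch targets Hey2 and Hes1 fell by 2.84 and 2.36 (limma adjusted p = 0.00196 and 0.00718), from 14.5 ± 6.52 to 1.02 ± 0.223 FPKM and from 53.1 ± 7.59 to 10.9 ± 7.34 FPKM. The third that fell was Smad7, the exception named above, whose call was lost with median-of-ratios scaling (limma adjusted p = 0.0366). Jun, the factor that drives the repair state, was at 444, 423 and 483 FPKM in SCPs and 118, 635 and 672 FPKM in RSCs and did not pass (limma adjusted p = 0.765). With unnamed transcripts RSC 1 was at 783 FPKM, all RSCs lay above all SCPs, and the log2 fold change of Jun was 0.63 (limma adjusted p = 0.00147). With these transcripts 3 genes of the list rose and 6 of 11 tested fell, against 23.2% and 34.1% of all genes tested that way. The largest change was that of Ednrb, the endothelin receptor B, at 214 ± 21.5 FPKM in SCPs and 11.7 ± 0.547 FPKM in RSCs (-4.07, limma adjusted p = 1.21e-06), and its named values of 49.6, 0 and 57.9 in SCPs and 0, 1.62 and 0 in RSCs did not pass.

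Among 6 relatives and partners of Id2, none of Id1, Id3 and Id4 passed, and the E proteins Tcf3 and Tcf12 fell by 1.99 and 0.68 (limma adjusted p = 0.000194 and 0.0217), the second not with median-of-ratios scaling (limma adjusted p = 0.0633). Of all genes tested, 22.4% fell and 40.5% passed in either direction. Tcf3 went from 80.1 ± 11.9 to 19.4 ± 2.04 FPKM and Tcf12 from 65.9 ± 15.6 to 40.2 ± 3.24 FPKM, while Id2, which binds such proteins, rose. With unnamed transcripts Id4 passed, from 8.03 ± 2.81 to 22.3 ± 7.61 FPKM (1.37, limma adjusted p = 0.0077), and Id1, Id2 and Id3 did not. Of all genes tested that way, 23.2% rose. Of 12 calcineurin and NFAT genes, 10 were tested and 2 passed, against 40.5% of all genes tested. Rcan1, an inhibitor of calcineurin, rose by 1.21 (limma adjusted p = 0.00058), from 19.4 ± 2.34 to 46.1 ± 2.83 FPKM, and Nfatc3 fell by 0.83 (limma adjusted p = 0.018), from 11.7 ± 1.03 to 6.23 ± 1.61 FPKM, a call lost with median-of-ratios scaling.

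Of the 15 immediate-early genes, 13 rose in RSCs and 1, Egr3, fell, with a median log2 fold change of 2.25. Of all genes tested, 18.1% rose and 22.4% fell. Ier3 and Gadd45b rose by 3.77 and 3.33 (limma adjusted p = 2.7e-05 and 0.000105), from 10.5 ± 1.88 to 155 ± 14.5 FPKM and from 16.0 ± 3.77 to 169 ± 31.7 FPKM. With unnamed transcripts all 15 passed as higher in RSCs, Egr3 included, against 23.2% of all genes tested that way. Egr2 belongs to the same family of zinc finger genes as Egr1, Egr3 and Egr4, which respond within minutes to cell stimulation. Its log2 fold change of 3.03 lies within the wide range of this list, -1.72 to 3.77. It also lies within that of the tested myelin genes, -3.05 to 5.24. Of the 12 leukocyte markers, 10 were tested and all 10 were over 4-fold higher in RSCs, with a median of 4.36. Over all genes tested, 11.6% passed with over 4-fold in either direction. Whether these genes and cells had a part in the RSC levels of the 10 factors was not tested.

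**Figure D4:**
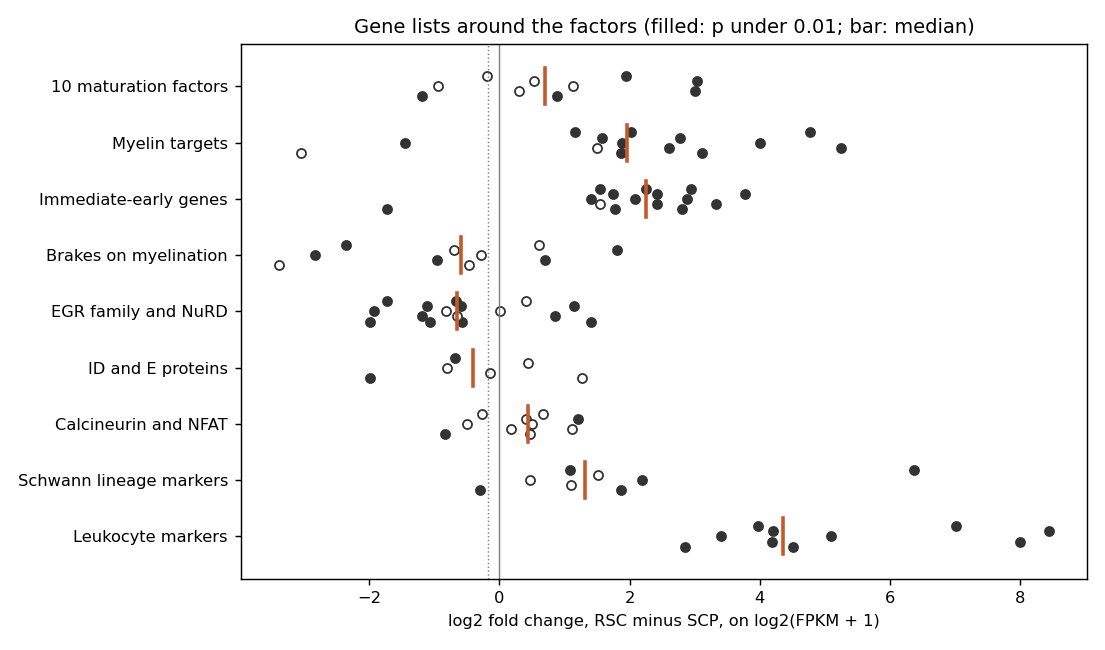
Log2 fold change, RSC minus SCP on log2(FPKM + 1) of named transcripts, for each tested gene of the 10 factors, 6 lists around them and 2 marker lists. Filled points passed at p under 0.01, the vertical bar of each list is its median, and the dotted line is the median of all genes tested, -0.17. Myelin, immediate-early and leukocyte genes lie mostly to the right, and the EGR and NuRD list and the list of brakes mostly to the left.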

How the data were processed

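The authors sequenced stranded mRNA libraries with paired-end reads and mapped them to rn6. FastQC 0.11.2, TopHat2 2.1.0 and Cufflinks 2.2.1 are named in the submitters' processing notes. The authors deposited, for each of the 6 samples, a Cufflinks transcript table in FPKM with the coverage of each transcript, a signal from which relative depth was taken. From each sample, 77 transcripts with date-like names were left out. FPKM of named transcripts were summed by symbol, and unnamed transcripts were added, as an alternative, to the gene they overlap most within a Cufflinks locus. The groups were set against each other on log2(FPKM + 1) with limma 3.58.1 (R 4.3.3), two-sided and with a variance trend, at an unadjusted p under 0.01, with Benjamini-Hochberg values over all genes tested. The tables hold no counts, so no count test was run. Where the text says that a gene passed, rose or fell, this unadjusted threshold is meant, and the p printed beside it is the adjusted one. Tables were handled with pandas 2.3.3 and numpy 2.4.6 in Python 3.11.15, and the fit was tested on simulated data. The named genes are the 10 factors, in each of the 6 related lists the 2 genes with the largest change in each direction among those called, and the 2 closest genes by correlation. Some genes that this rule names are left out of the text. Smad7, Jun, Ednrb, Id1, Id3, Id4, the other NuRD subunits and Sox10 were picked with their values in view. The genes and lists were chosen with earlier results of these data known, and the lists were written from general knowledge. Promoters come from RefSeq on GRCr8, another assembly than that of the tables, and were searched on both strands. Positions are as deposited, on rn6, counted from 1. How Cufflinks divided reads between overlapping transcripts is not given in the sources used here. Other settings tried were 0.1 in place of 1 as pseudocount, minimum means of 0 and of 5 FPKM, quantile and median-of-ratios scaling, a fit without the trend, a fit blocked by replicate number, calls by adjusted p under 0.01, leaving out each sample, taking the highest transcript of a gene, adding unnamed transcripts, and dropping a 0 if its group reached 5 FPKM elsewhere. Added after seeing the data were the Sox2 mRNA alone, and unnamed transcripts together with the block or with a sample left out.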

Additional observations from a re-analysis of the deposited data

How the results depend on the processing

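Among the alternatives for single factors, 160 kept the direction and the side of the threshold, 7 gained the call, 7 lost it and 3 changed direction, all 3 for Zeb2, whose log2 fold change became 0.018 with median-of-ratios scaling, 0.012 with the highest transcript and 0.036 with unnamed transcripts. Egr2 and Sox2 passed in every alternative, and Pou3f1 in every one that tested it. At a mean of at least 5 FPKM, 7 factors were tested. The number of factors higher in SCPs, 1 as reported, was 0 with the replicate block, 0 at an adjusted p under 0.01, 2 with unnamed transcripts, 2 with values of 0 left out, and 0 to 2 with 1 sample left out.

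Of the counts of the 6 related lists under alternatives, 183 stayed within 1.5 times those reported and 33 did not. EGR and NuRD genes higher in RSCs went from 3 to 1 with the block and at adjusted p, and to 1 to 2 with a sample left out. In the list of brakes, the number higher in SCPs went from 3 to 6 with unnamed transcripts, Smad7 included in both. For ID and E proteins, the number higher in RSCs went from 0 to 1 with unnamed transcripts, and the number higher in SCPs from 2 to 1 with median-of-ratios scaling, no trend, the block, the highest transcript and adjusted p, and to 1 to 2 with a sample left out. Calcineurin and NFAT genes higher in RSCs went from 1 to 3 with median-of-ratios scaling, 2 with the highest transcript and 4 with unnamed transcripts, and those higher in SCPs from 1 to 0 with median-of-ratios scaling, the block and adjusted p, and to 0 to 1 with a sample left out. Myelin genes higher in SCPs went from 1 to 2 with values of 0 left out and were 1 to 2 with a sample left out. Immediate-early genes higher in SCPs went from 1 to 0 at a mean of at least 5 FPKM and with unnamed transcripts, and to 0 to 1 with a sample left out. Causes were not tested.

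Over all genes, 5268 passed as reported and 8038 with unnamed transcripts. Median-of-ratios scaling moved the median of all genes from -0.17 to 0.02 and the share of called genes that were higher in RSCs from 44.6% to 56.1%. The correlation of deviations between same-numbered samples was at most 0.04. SCP 1 deviated most with RSC 1 (0.04), SCP 3 with RSC 3 (0.03) and SCP 2 with RSC 1 (0.01). With 3 samples in each group, values this small cannot decide whether replicate numbers pair the samples. With the replicate block 4275 genes passed, and of the factors only Yy1 changed side. With the block and unnamed transcripts together, 7 factors passed as higher in RSCs, Id2 among them, and 2 as higher in SCPs. Absolute depth is unknown, so no counting error can be given for single values.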
